A study of Mus musculus with 3 samples.

Results

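Pregranulosa cells were examined in the embryonic day 16.5 (E16.5) library of a mouse ovary series. They were chosen by their RNA: a cell was taken when 7 genes (Gng13, Fst, Cma1, Gstm6, Irx3, Lgr5 and Foxl2) together held at least 5 of every 10000 of its counted molecules (5 CP10K). The cell also needed at least 200 detected genes, less than 10% of its molecules from 4 adult haemoglobin genes, and less than 10 CP10K of the 5 germ cell genes Sycp1, Syce2, Syce3, Dazl and Taf7l. This took 83 of the 459 cell barcodes of the library, which is 1 of 3 libraries with 1554 barcodes in all. The series measured single-cell gene expression in whole ovaries of C57BL/6 female mice at E16.5, postnatal day 7 (P7) and postnatal day 14 (P14), with no genetic change or treatment named in the labels. The title of the embryonic library calls it day 17, and its age label says 16.5. The ovaries were dissociated with collagenase and the cells were captured in droplets, where each mRNA molecule is tagged near its 3′ end with a cell barcode and a unique molecular identifier (UMI), so that UMIs stand for captured molecules. The number of animals behind a library, and whether their ovaries were pooled, is not given in the sources used here.

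Pregranulosa cells are the somatic supporting cells of the fetal ovary. They surround the germ cells, enclose them in primordial follicles around birth, and become the granulosa cells that nourish the oocyte. They descend from the epithelium of the gonad, in an early wave that fills the medulla and a later wave from the surface epithelium; R-spondin and WNT signals and the forkhead factor FOXL2 are known to set and hold their fate, and LGR5, a receptor for R-spondins, marks cells of the later wave. UPK3B is a membrane protein of mesothelium, the tissue to which the ovarian surface epithelium belongs.

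Each age had 1 library, so there is no replicate of any value, no difference was tested, and cells are not replicates. All results are values of these libraries, and a difference between cell sets is described by its size. The UMIs of a set of cells were summed and scaled to 1000000 (CPM), and every range in parentheses is an exact 95% interval that covers counting error only. The libraries held 8743797 to 9065595 UMIs, were sequenced together, and shared 0 cell barcodes. Of the embryonic barcodes 456 had 200 genes or more; beside the 83 gated cells these were 139 haemoglobin-rich cells, 74 cells over the limit of germ cell genes, and 160 other somatic cells. The other somatic cells were mixed: 18 reached 5 CP10K of an endothelial list, 9 reached it for an immune list, 103 held at least 10 CP10K of a stroma list, and 30 remaining cells were led by the erythroid genes Klf1, Epor, Rhd and Car2. The 103 stroma-rich cells are therefore given as a second comparator, which was chosen after the data had been seen.

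The 83 pregranulosa cells held 7222 to 70031 UMIs, with a median of 15912, and summed to 1703158 UMIs. A count of 0 in that sum allows 1.76 CPM. They made up 18.2% (14.8 to 22.1) of the kept cells and 34.2% (28.2 to 40.5) of the 243 cells that were neither haemoglobin-rich nor over the germ gene limit. The median pregranulosa cell had 4789 detected genes, against 3888.5 in other somatic cells with a median of 14011 UMIs. The median mitochondrial share of UMIs was 2.20%, against 1.13% in other somatic and 1.10% in stroma-rich cells, and the highest in a pregranulosa cell was 4.51%. No doublet caller was run.

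The chosen cells can be checked against granulosa lineage markers that the rule did not use. Of 13 such markers, all 13 stood at least 2-fold higher in the gated cells than in other somatic cells on a log2 scale of (CPM + 10), with log2 ratios from 1.22 (Wnt4) to 4.64 (Wnt6). Against stroma-rich cells 10 of the 13 did, and the other 3 were Wnt4 at 0.53, Wt1 at 0.71 and Gata4 at 0.75. These markers were measured in the same cells as the gate genes, so they describe the gated cells and test nothing. Some markers of the follicle's growing granulosa cells were at or near 0. Amh, the anti-Müllerian hormone, had 2 UMIs in all 83 cells, and Fshr, the FSH receptor, and Esr2, the oestrogen receptor β, had 0 UMIs. Others were not low: of 14 measured follicle growth genes, 6 were at least 2-fold higher than in other somatic cells and 2 lower.

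The gate genes themselves are a description of the choice. Gate sums ran from 5.49 to 100.5 CP10K with a median of 27.9; the 3 cells just inside the limit had 5.49, 5.51 and 5.74 CP10K and the 3 just outside 4.45, 4.11 and 3.79. Of those just inside, the first and second held 3.78 and 6.42 CP10K of Upk3b and no UMI of Fst or Foxl2. The third held 115.7 CP10K of the stroma list and no Foxl2 UMI. Most cells did not rest on a single gene, since 72 of 83 had UMIs of at least 4 gate genes. Dropping a gene from the sum left 76 of 83 cells without Gng13, 78 without Fst and 81 to 83 without any of the other 5.

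Fst encodes follistatin, the extracellular binder of activins. It was detected in 79 of 83 cells, with a median of 9.22 and a highest value of 37.9 CP10K, and summed to 934 CPM (888 to 981), against 9.71 CPM in other somatic and 17.0 CPM in stroma-rich cells. Gng13 (a G protein γ subunit best known from taste cells) was found in 67 cells and summed to 555 CPM (521 to 592); its median was 3.62 CP10K and its highest 29.1. Gstm6, a glutathione transferase, was found in 76 cells at 430 CPM, and Irx3, an Iroquois homeobox factor, in 73 cells at 305 CPM. Foxl2 was found in 68 cells at 179 CPM (160 to 200) and Lgr5 in 50 cells at 92.2 CPM (78.3 to 108). The plot of gate genes per cell shows these 6 genes spread over many cells, with gaps of their own in each.

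**Figure D1:**
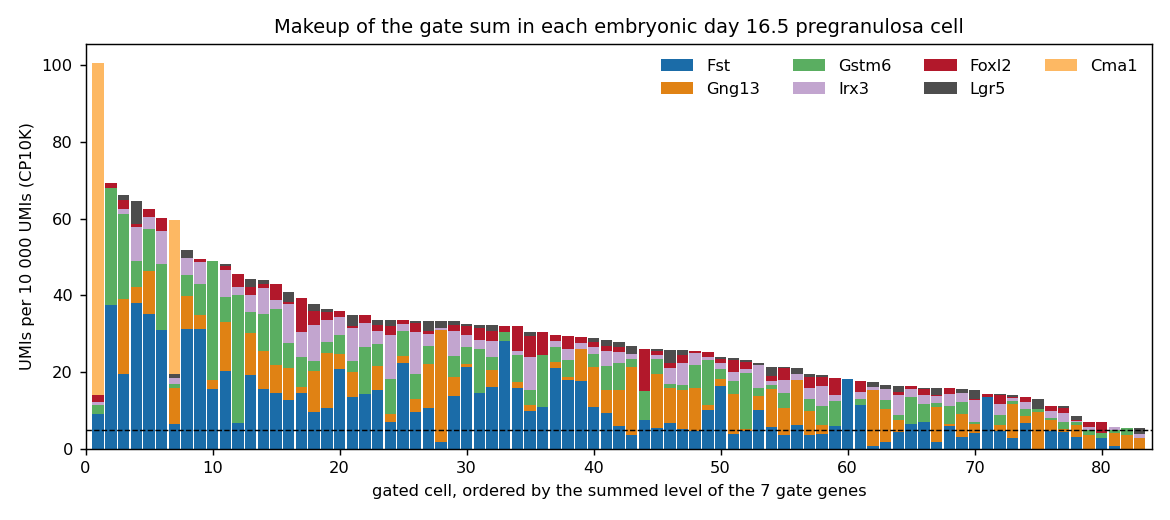
Levels of the 7 gate genes (CP10K) in each of the 83 pregranulosa cells at E16.5. Fst and Gng13 reach the most cells with high values, Lgr5 stays at or under 6.02 CP10K, and Cma1 has UMIs in 2 cells.

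Detection depends on depth, so each cell was also thinned at random to 5000 UMIs. After thinning, Fst was seen in 89.2% of pregranulosa cells, Gstm6 in 80.7%, Gng13 in 71.1%, Irx3 in 65.1%, Foxl2 in 54.2% (42.9 to 65.2) and Lgr5 in 26.5% (17.4 to 37.3). Haemoglobin-rich cells, which should lack these genes, had a median of 15560 UMIs and showed Fst in 3.60% and Gng13, Lgr5 and Foxl2 in 0.719% each after the same thinning. The erythroid list held 562592 CPM in them, so fewer of their 5000 UMIs were left for other genes. Stroma-rich cells showed Fst in 4.85%, Gng13 in 5.83%, Lgr5 in 1.94% and Foxl2 in 8.74%. Cells over the germ gene limit showed Fst in 8.11% and Gng13 in 12.2%, and before thinning 1 haemoglobin-rich cell held 45 of the 52 Gng13 UMIs of its class. Since detection fell with depth, a single cell with no UMI of Lgr5 or Foxl2 is not shown to lack the mRNA.

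Cma1, a mast cell chymase, went against its place among pregranulosa genes. All of its 383 UMIs lay in 2 cells, which held 248 and 135 of them in totals of 28668 and 33534 UMIs. The same 2 cells held 37 and 28 UMIs of Cpa3, 40 and 13 of Hdc, and 0 and 40 of Tpsb2, which are mast cell genes picked after their values were seen; the other 81 cells together held 2, 9 and 0. Both cells also carried pregranulosa genes, at levels that varied from gene to gene. Fst stood at 907 and 656 CPM (940 in the other 81), Kctd14 at 1988 and 1223 (1811), Kitl at 349 and 507 (458) and Amhr2 at 209 and 268 (224). Wnt6 stood lower than in the rest in both, at 209 and 328 CPM (542), as did Irx3 at 69.8 and 149 (312) and Gstm6 at 244 and 119 (439). Gng13 stood at 0 and 924 CPM (558) and Foxl2 at 174 and 0 (183). Both passed the gate without Cma1. Whether each is 1 cell or 2 in a droplet was not tested, so results that these cells touch are also given without them.

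The promoters of 3 genes are shown because each stands for a group described here: Gng13 for the gate, Amhr2 for the genes highest against other cells, and Upk3b for the surface epithelium state. Each is the 250 bases before the gene's start on the plus strand of GRCm38.p6, 5′ to 3′, from RefSeq: chr17:25716922-25717171, chr15:102445117-102445366 and chr5:136038246-136038495. Capitals mark a match to AAGGTCA, the binding motif of SF-1 (gene Nr5a1).
Gng13: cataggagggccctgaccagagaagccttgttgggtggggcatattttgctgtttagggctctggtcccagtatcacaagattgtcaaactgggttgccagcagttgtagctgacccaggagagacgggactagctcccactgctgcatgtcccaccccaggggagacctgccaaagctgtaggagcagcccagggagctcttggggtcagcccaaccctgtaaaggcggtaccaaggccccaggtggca
Amhr2: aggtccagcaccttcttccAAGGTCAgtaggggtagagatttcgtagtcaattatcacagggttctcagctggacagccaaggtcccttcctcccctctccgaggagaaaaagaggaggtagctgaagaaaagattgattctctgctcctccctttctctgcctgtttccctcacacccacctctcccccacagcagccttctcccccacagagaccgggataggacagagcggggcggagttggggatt
Upk3b: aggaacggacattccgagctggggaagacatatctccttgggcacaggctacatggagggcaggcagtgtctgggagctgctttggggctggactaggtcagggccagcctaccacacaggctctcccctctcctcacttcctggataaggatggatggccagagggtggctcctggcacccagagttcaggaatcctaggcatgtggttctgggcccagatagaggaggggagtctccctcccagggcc
Both strands were searched for AAGGTCA, for CTTTGA (the motif of TCF and LEF factors, which act in WNT signalling) and for AGATAA (that of GATA factors). Of 27025 mouse promoters of the same length 4.04% hold the first, 14.1% the second and 10.2% the last. Promoters were matched for 9 of 12 genes looked up, among them 5 of the 7 gate genes. The Amhr2 promoter held 1 match, on the plus strand and starting 231 bases before the gene's start. The other 8 promoters, among them that of Wnt6, the gene with the largest ratio over other cells, held none of these letters. By the gene positions given below, the bases searched for Foxl2 and Irx3 lie within the gene, and those for Gstm6 lie apart from it. A match is not shown to be a site in use.

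On GRCm38 the gate genes lie at chr17:25717171-25719406 (Gng13), chr13:114452290-114458951 (Fst), chr14:55941451-55944675 (Cma1), chr3:107938847-107943749 (Gstm6), chr8:91798525-91802067 (Irx3), chr10:115450311-115587780 (Lgr5) and chr9:98955288-98958543 (Foxl2). Several overlap a gene on the opposite strand: Gng13 and Chtf18, Fst and Gm47040, Irx3 and Irx3os, Lgr5 and A930009A15Rik, Foxl2 and Foxl2os. Use of strand in the authors' counting is not stated in the sources used here, and without it the reads of such pairs cannot be told apart. Gstm6 and the other Gstm genes are close copies of each other, so the split of their reads is uncertain.

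Against the other somatic cells, and with the gate genes set aside, the largest log2 ratios in pregranulosa cells were those of Wnt6, a WNT ligand, Aldh1a1, a retinoic acid enzyme, Cst8, a cystatin, Smpx, a small muscle protein, and Prcd, a membrane protein known from photoreceptors. Of 14099 genes with at least 10 UMIs in both sums together, 1115 were at least 2-fold higher in pregranulosa cells (7.91%) and 477 at least 2-fold lower (3.38%). The median of all these genes was not 0 but 0.16 on the log2 scale. Scaling by TMM, which centres the bulk of genes, brought it to 0 and gave 733 higher and 727 lower, so the excess of higher genes depends on the scaling. List medians below are to be read against 0.16; under TMM they were lower, and those of the Notch and retinoic acid lists changed sign, from 0.02 and 0.04 to -0.11 and -0.02. Against stroma-rich cells 916 of 13110 genes were higher and 379 lower, with a median of 0.16. List counts against stroma-rich cells are to be read against these values. Of the 1115 higher genes 751 (67.4%) were higher against stroma-rich cells too, but of the 477 lower genes only 153 (32.1%) were lower.

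Ligands and receptors come first. Wnt6 was found in 82 of 83 cells and stood at 533 CPM (498 to 568), against 11.7 CPM in other somatic and 14.3 CPM in stroma-rich cells, a ratio of 45.5 (33.3 to 63.8) to other somatic cells. Kitl, the ligand by which granulosa cells reach KIT on the oocyte, was found in 81 cells and stood at 457 against 38.8 CPM (44.5 in stroma-rich cells), a ratio of 11.8. Amhr2, the receptor of anti-Müllerian hormone, was found in 77 cells and stood at 225 CPM (203 to 249) against 8.85 CPM, a ratio of 25.4. Kctd14, a potassium channel tetramerization domain protein, was present in all 83 cells, with a lowest value of 0.644, a median of 18.1 and a highest of 56.4 CP10K; its level was 1802 CPM, 12.8 times the 141 CPM of other somatic cells and above the 236 CPM of stroma-rich cells.

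Enzymes and small secreted proteins formed another group. Aldh1a1, which makes retinoic acid, stood at 371 against 12 CPM in other somatic cells, a ratio of 30.9. The cystatins Cst8 and Cst12, of a family of protease inhibitors, stood at 158 and 93.4 CPM; other somatic cells held 3 and 1 UMIs of them. Lgals7, a galectin, was found in all 83 cells at 1000.5 against 94.5 CPM, and Gstm2 in 82 cells at 870 against 82.8 CPM.

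Genes of epithelial shape and contact made up a further share of the 20 leading genes. Cgn, a tight junction protein, stood at 201 against 5.71 CPM (ratio 35.2), and Espn, an actin bundler of microvilli, at 163 against 7.14 CPM (22.8). The keratins Krt8 and Krt18, filament partners of simple epithelia, stood at 113 against 4.86 CPM and 109 against 4.57 CPM. Itga6, a laminin receptor subunit, stood at 445 against 38.0 CPM and Sdc4, a syndecan, at 223 against 15.4 CPM. Smpx (164 against 2.00 CPM), Prcd (292 against 11.7 CPM) and Aard (211 against 8.0 CPM) were also among the 20. The plot of leading genes draws 18 of them, and each of these stood above stroma-rich cells as well. Wnt6, Prcd, Aldh1a1, Lgals7, Itga6 and Krt8 overlap a gene on the opposite strand in the annotation.

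**Figure D2:**
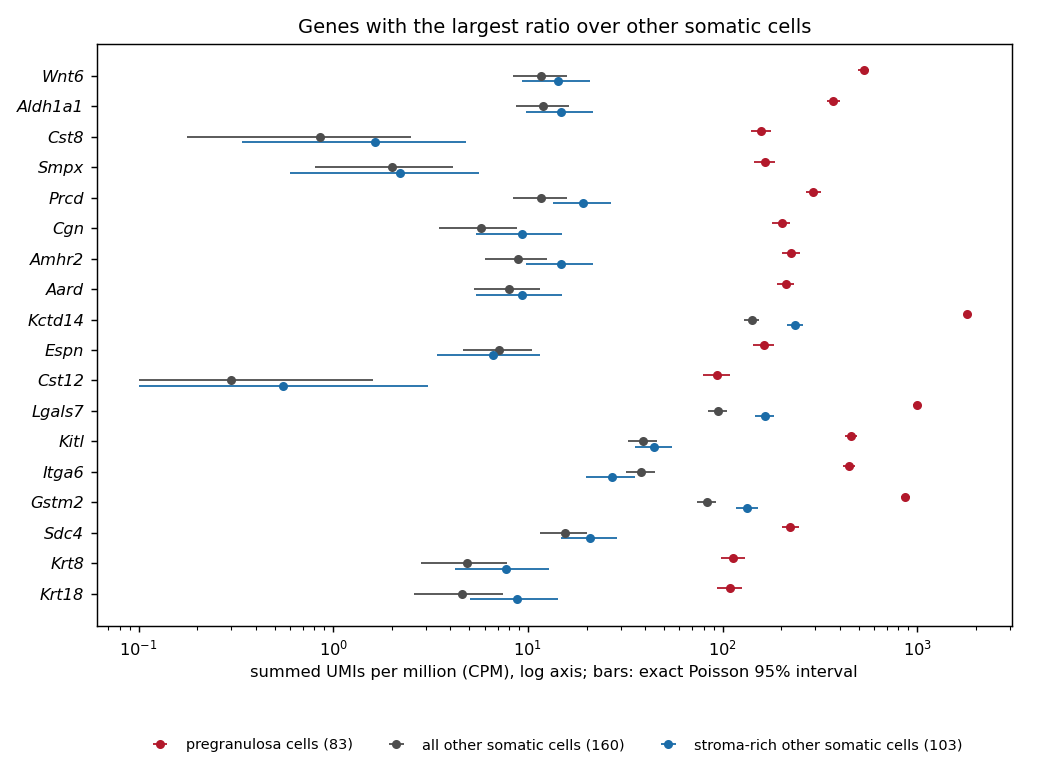
Levels of 18 of the 20 genes with the largest log2 ratio, gate genes left out, in pregranulosa, other somatic and stroma-rich cells (CPM, log axis starting near 0.1; bars are exact 95% counting intervals, ended at 0.1). For each gene drawn, the pregranulosa level lies above both comparators, from Kctd14 at 1802 CPM down to Cst12 at 93.4 CPM.

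The 12 genes lowest against other somatic cells are mostly known from blood and vessel cells, which that comparator holds. S100a8 and S100a9, calcium-binding proteins of neutrophils, stood at 16.4 and 20.6 CPM against 731 and 397 CPM in other somatic cells. Stfa1 and Stfa3, stefins of myeloid cells, stood at 2.35 and 0 against 242 and 56.8 CPM, and Lyz2, a lysozyme, at 8.81 against 135 CPM. Cldn5, Cdh5 and Cd93, genes of endothelium, and Lmo2, Klf1 and Car2, genes of blood progenitors and red cells, followed. Of these 12 only Igfbp7, a secreted IGF-binding protein, was also at least 2-fold lower against stroma-rich cells, at 20 against 165 CPM. The other 11 had log2 ratios between -0.61 (Lmo2) and 0.50 (S100a9) there.

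The transcription factors of the gonad formed the first of the gene lists described. Of 18 with enough UMIs, 9 were at least 2-fold higher than in other somatic cells and 1 was lower, with a median log2 ratio of 1.17, against 0.16 over all genes; against stroma-rich cells 8 were higher and 1 lower, with a median of 0.73. The 9 include the gate genes Foxl2 and Irx3. Runx1, a factor of the supporting cell lineage, stood at 84.5 against 11.1 CPM, Emx2 at 171 against 36.0 CPM and Lhx9 at 116 against 22.0 CPM, both factors needed for the early gonad. Gata4 (185 against 59.4 CPM), Wt1 (491 against 171 CPM) and Nr5a1 (58.7 against 16.0 CPM) were higher than in the mixed comparator; against stroma-rich cells, where they stood at 106, 297 and 21.4 CPM, Gata4 and Wt1 were less than 2-fold higher. Tcf21, a factor of gonadal mesenchyme, went the other way, at 37.6 CPM against 202 in other somatic and 383 in stroma-rich cells.

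In the WNT and R-spondin pathway 10 of 28 measured members stood at least 2-fold above other somatic cells and 1 below them, with a median of 0.56. Against stroma-rich cells 8 were higher and 4 lower (Sfrp1, Sfrp2, Wnt5a and Fzd7), with a median of 0.30. Among ligands Rspo1, the R-spondin of ovarian fate, stood at 241 CPM against 21.7 in other somatic and 36.8 in stroma-rich cells, Wnt6 as above, and Wnt4 at 238 against 96.5 and 161 CPM. Among receptors Lgr4 stood at 122 against 32.3 CPM beside the gate gene Lgr5. Targets of β-catenin followed: Axin2, a feedback scaffold, at 73.4 against 12 CPM, Sp5 at 58.7 against 2.28 CPM, and Rnf43, which clears WNT receptors, at 16.4 against 0.857 CPM. The nuclear partners Lef1 and Tcf7l2 stood at 31.1 against 5.14 and 99.2 against 39.7 CPM. The secreted inhibitor Sfrp1 was lower, at 102 against 302 CPM and 555 CPM in stroma-rich cells.

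In the TGF-β family 9 of 26 measured members stood at least 2-fold above other somatic cells and 0 below them, with a median of 0.59. Against stroma-rich cells 7 were higher and 3 lower (Inhba, Fstl1 and Id2), with a median of 0.29. Beside follistatin these held inhibin subunits: Inha, the inhibin α subunit, stood at 98.1 against 7.43 CPM and Inhbb, the βB subunit, at 37.6 against 1.43 CPM. Inhba, the βA subunit, stood at 2.35 against 11.4 CPM, with a log2 ratio of -0.79, and at 20.3 CPM in stroma-rich cells, with one of -1.30. Bmp2 stood at 45.2 against 3.71 CPM and Bmp7 at 21.1 against 1.71 CPM. On the receiving side Amhr2 was described above, Acvr2b, an activin receptor, stood at 28.8 against 7.43 CPM, Smad3 at 65.2 against 19.7 CPM, and Id1, a target of BMP signals, at 342 against 146 CPM.

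Follicle growth genes were split. Of 14 measured, 6 were higher and 2 lower, with a median of 0.50, and against stroma-rich cells 5 of 12 were higher and 3 lower, with a median of 0.55. Gatm, an enzyme of creatine synthesis, stood at 350 against 88.8 CPM and Gja1, the gap junction protein connexin 43, at 99.8 against 44.3 CPM. Serpine2 and Gpx3 were lower, at 17.0 against 70.0 CPM and 15.9 against 45.4 CPM. Of 3 steroid receptors with enough UMIs none differed by 2-fold from other somatic cells, and 1 was lower against stroma-rich cells. Esr1, the oestrogen receptor α, had 41 UMIs in 19 of 83 cells, which is 24.1 CPM against 8.28 CPM in other somatic and 14.3 CPM in stroma-rich cells. Among 7 measured genes of Sertoli cells, the supporting cells of the testis, Sox9 stood at 29.4 against 3.14 CPM and Aard was described above, while Dmrt1 had 1.17 CPM.

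Signals to germ cells were higher for 6 of 15 measured genes and lower for 0, with a median of 0.26. TMM scaling gave 4 higher and 1 lower, with a median of 0.012. Against stroma-rich cells 5 of 14 were higher and 3 lower (Ntrk2, Cxcl12 and Fgf2), with a median of 0.25. Beside Kitl the 6 were Gas6, a ligand of TAM receptors (535 against 115 CPM), Pdgfa (68.7 against 10.0 CPM), Igf2 (61.1 against 20.3 CPM), Nectin2 (129 against 55.4 CPM) and the protease Adam10 (120 against 52.3 CPM). In the retinoic acid list 3 of 14 were higher and 2 lower: the synthesis enzymes Aldh1a1 and Aldh1a2 (74.6 against 11.7 CPM) and the reductase Dhrs3 (55.2 against 21.4 CPM) were higher, and the binding protein Crabp1 (8.22 against 35.1 CPM) was among the lower; against stroma-rich cells 2 were higher and 2 lower. Notch pathway genes had 0 of 18 higher and 3 lower with a median of 0.02, and of 6 measured Hedgehog genes none differed by 2-fold. Notch1, Mfng and Nrarp were the 3 lower genes; against stroma-rich cells 1 of 12 was lower (Notch3), Notch1 had a log2 ratio of -1.0, Mfng was at 0 CPM in both sets, and Nrarp stood at 1.76 against 1.65 CPM.

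Surface epithelium genes had the highest list median apart from the gate genes, at 1.89, with 9 of 15 members at least 2-fold above other somatic cells and 0 below. Against stroma-rich cells 8 were higher and 2 lower, with a median of 1.59. The list as a sum was not higher there, at 1630 CPM in pregranulosa and 1677 CPM in stroma-rich cells. Its median per cell was 13.6 and 14.6 CP10K in these sets. Podxl, a sialomucin of the apical surface, stood at 188 CPM against 22.6 in other somatic and 15.9 in stroma-rich cells, Krt19 at 58.1 against 6.85 and 12.1 CPM, Krt7 at 41.1 against 2.86 and 4.94 CPM, and Bcam at 78.7 against 14.0 and 17.0 CPM. Upk3b had 96 UMIs in 11 cells, at 56.4 CPM, and 47 UMIs in 5 of 103 stroma-rich cells, at 25.8 CPM. Its highest value was 10.4 CP10K in a pregranulosa cell and 16.0 CP10K in a stroma-rich cell. Most Krt19 and Krt7 UMIs of the pregranulosa cells lay in the 11 cells with Upk3b, and levels without these cells are given below. Msln, the mesothelin gene, had 0 UMIs.

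Cell contact genes had 7 of 17 higher and 4 lower, and 6 and 3 against stroma-rich cells. Cdh2, N-cadherin, stood at 50.5 against 8.57 CPM, F11r, a tight junction receptor, at 123 against 35.1 CPM and Epcam at 15.3 against 1.14 CPM, while Cdh11 (35.2 against 90.5 CPM), Cadm1 (18.8 against 58.3 CPM) and Ncam1 (87.5 against 198 CPM) were lower. Cdh1, E-cadherin, had 0 UMIs in pregranulosa cells. Of 19 basement membrane genes 4 were higher and 1 lower, but 1 was higher and 2 lower against stroma-rich cells. Lama1 stood at 28.2 against 7.14 CPM, Lamb2 at 34.1 against 9.43 CPM, and Lama4, a laminin chain of vessels and mesenchyme, at 2.94 against 21.1 CPM.

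Among glutathione transferases 5 of 14 were higher and 0 lower, and 4 of these 5 were Gstm genes, whose reads may be split between copies: Gstm1 stood at 580 against 88.8 CPM and Gstm7 at 74.6 against 6.85 CPM beside Gstm2 and Gstm6, while Gstm5 stood at 177 against 172 CPM. Mgst1, a membrane-bound transferase, stood at 218 against 76.8 CPM. Steroid synthesis genes had 5 of 11 higher and 0 lower, and 3 and 0 against stroma-rich cells. Hsd3b1 stood at 34.6 against 0.857 CPM, Akr1c14 at 49.3 against 4.86 CPM and Fdxr, the reductase that feeds mitochondrial P450 enzymes, at 74.6 against 14.6 CPM, but Cyp11a1, Cyp17a1 and Cyp19a1 reached only 4.11, 1.17 and 1.76 CPM.

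Of 22 measured imprinted genes 7 were higher and 1 lower. Cdkn1c, which encodes the cyclin kinase inhibitor p57, was found in all 83 cells at 1294 CPM against 273 in other somatic and 424 in stroma-rich cells. Peg10 stood at 242 against 28.6 CPM, Peg3 at 678 against 183 CPM and the noncoding RNA H19 at 2752 against 1039 CPM, and Plagl1 was lower, at 31.7 against 83.7 CPM. Against stroma-rich cells 4 were higher and 5 lower. Cdkn1b, which encodes the inhibitor p27, stood at 211 CPM in 73 cells against 17.1 in other somatic and 20.9 in stroma-rich cells.

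Genes of cell division went the other way. Of 20 S phase genes 0 were higher and 12 lower, with a median of -1.08, and of 22 genes of G2 and M phase 0 were higher and 21 lower, with a median of -1.60. The comparator holds the erythroid-led cells; against stroma-rich cells 3 and 11 of these genes were lower, with medians of -0.60 and -1.01. Mki67, a mark of cycling cells, stood at 18.2 CPM against 109 in other somatic and 58.2 in stroma-rich cells, and had UMIs in 13 of 83 pregranulosa cells. Top2a stood at 44.0 against 174 and 111 CPM, and the centromere gene Cenpa at 24.1 against 165 and 104 CPM. The plot of lists sets these medians side by side.

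**Figure D3:**
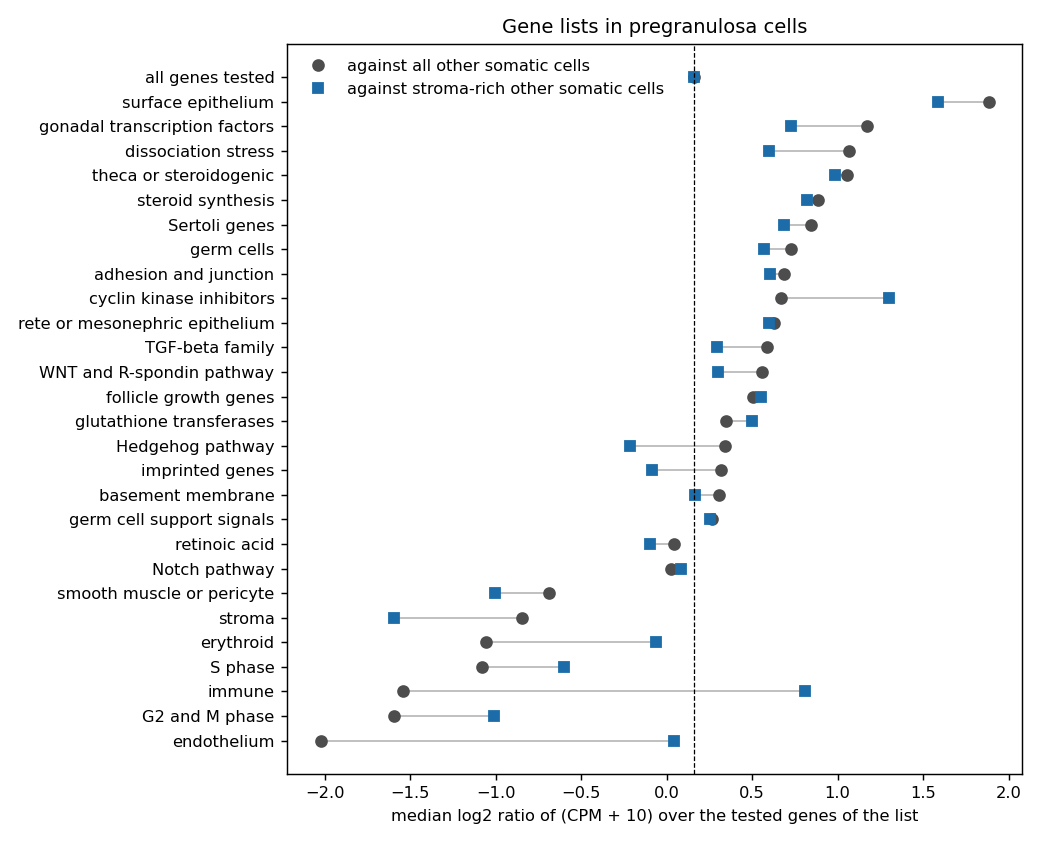
Median log2 ratio of (CPM + 10) of each gene list in pregranulosa cells against other somatic (circles) and stroma-rich cells (squares); the dashed line is the median of all genes, 0.16, and the gate genes are left out. Surface epithelium genes lie highest, at 1.89 and 1.59, genes of G2 and M phase lie low against both, at -1.60 and -1.01, and the endothelial and immune lists are low against other somatic cells only, at -2.03 and -1.55.

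Genes that dissociation is known to induce were also high. Of 16 such genes 8 were at least 2-fold higher than in other somatic cells and 3 against stroma-rich cells, with medians of 1.06 and 0.60. Fos stood at 2091 CPM against 902 and 1495 CPM, Egr1 at 1111 against 398 and 653 CPM, and Fosb at 672 against 128 and 205 CPM. The part of tissue handling in these levels was not tested.

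Markers of other cell types were low but not absent. The 12 endothelial genes summed to at most 3.77 CP10K in any pregranulosa cell, with Flt1 at 0, and the 12 immune genes to a median of 0.163 and at most 16.4 CP10K, with Csf1r at 0. The stroma list ran from 0.809 through a median of 7.60 to 131 CP10K, with 30 of 83 cells at 10 CP10K or more, against a median of 55.4 in stroma-rich cells. The erythroid list ran from 36.1 to 105 CP10K with a median of 61.1, close to the 53.5 of stroma-rich cells; Hbb-bs stood at 3058 and 3033 CPM in these sets. The part of these other markers in the list values was not tested. By genes, 12 of 12 endothelial, 9 of 12 immune, 5 of 10 erythroid, 6 of 20 stroma and 3 of 8 smooth muscle genes were at least 2-fold lower than in other somatic cells and 6 of 17 germ cell genes higher. Of 5 theca genes 3 were higher (Aldh1a1, Hsd3b1 and Fdx1), and of 5 genes of rete epithelium 2 (Krt7 and Epcam). Most Krt7 UMIs lay in the cells with a Upk3b UMI.

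Among germ cell genes Rec8 stood apart. All 18 genes of that list had UMIs in pregranulosa cells, and their sum ran from 0 through a median of 2.31 to 24 CP10K, with 7 cells at 10 or more. For 17 of the 18, the pregranulosa level was 1.26 to 6.92% of that in the 74 cells with many germ cell genes: Sycp1 and Sycp3, axis proteins of meiotic chromosomes, stood at 4.02% each and Dazl, a germ cell RNA-binding protein, at 2.98%. Rec8, a meiotic cohesin subunit, stood at 83.3%, with 65.2 CPM against 78.2 CPM there and UMIs in 48 of 83 cells. In stroma-rich cells Rec8 stood at 4.94 CPM. Sycp1, Syce2, Syce3, Dazl and Taf7l are also genes of the selection rule, which held them below a limit.

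Within the 83 cells, presence of an Lgr5, Foxl2 or Upk3b UMI defined overlapping states. Lgr5 was found in 50 cells, or 60.2% (48.9 to 70.8), Foxl2 in 68, or 81.9% (72.0 to 89.5), and Upk3b in 11, or 13.3% (6.81 to 22.5). Lgr5 and Foxl2 occurred together in 39 cells, Lgr5 alone in 11, Foxl2 alone in 29, and neither in 4. The shares of both genes, taken as independent, would give 41.0, 9.04, 27.0 and 5.96 cells in the same order. Foxl2 was present in 39 of 50 cells with Lgr5, 78.0% (64.0 to 88.5), and in 29 of 33 without, 87.9% (71.8 to 96.6). Of the 11 cells with Upk3b 5 had Foxl2, 45.5% (16.7 to 76.6), against 63 of 72 without, 87.5% (77.6 to 94.1), and 9 had Lgr5, 81.8% (48.2 to 97.7), against 41 of 72, 56.9% (44.7 to 68.6). After thinning, Foxl2 was seen in 3 of 9 cells with Upk3b and in 42 of 74 without, and Lgr5 in 3 of 9 and 19 of 74. By Lgr5, thinned cells showed Foxl2 in 9 of 22 with it and 36 of 61 without.

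Depth differs between states: the median was 20842 UMIs with Lgr5 and 13245 without, 17833 and 13815 for Foxl2, and 25574 and 15425 for Upk3b. Since Lgr5 and Foxl2 are gate genes, a cell without a UMI of either had to pass through the others, and gate genes in these contrasts follow in part from that. Sums of 11381 genes were compared on the same scale.

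Cells with an Lgr5 UMI were higher in Mt1, Cst12 and Npas3 and lower in Aard, Akr1cl and Mid1ip1. In all, 158 genes stood at least 2-fold above the cells without (1.39%) and 90 below (0.791%). Mt1, a metallothionein, stood at 603 CPM with Lgr5 and 145 without, a ratio of 4.16 (3.28 to 5.36), with UMIs in 46 of 50 and 24 of 33 cells. Cst12 stood at 126 against 19.3 CPM, a ratio of 6.52 (3.45 to 13.9). Npas3, a neuronal PAS domain factor, was found in 22 of 50 cells and 0 of 33, at 28.7 CPM, or at least 4.96-fold higher than the 3 UMIs that a count of 0 allows. Naaa, an acid amidase, stood at 70.9 against 13.5 CPM, and Trps1, a GATA-type repressor, at 68.4 against 15.4 CPM. Of other listed genes Podxl stood at 230 against 92.6 CPM, Lhx9 at 143 against 54.0 CPM and Krt19 at 70.9 against 28.9 CPM. Cells with a Upk3b UMI, 9 of 11 of which had Lgr5, held most Krt19 UMIs on both sides. Among gate genes Gng13 stood at 711 against 199 CPM and Irx3 at 351 against 199 CPM.

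Aard was lower with Lgr5, at 129 CPM in 37 of 50 cells against 398 CPM in 25 of 33, 3.08 times (2.49 to 3.82) higher without. Akr1cl, an aldo-keto reductase, stood at 144 against 374 CPM, Mid1ip1, a regulator of fatty acid synthesis, at 58.2 against 172 CPM, and Tuba1a, an α-tubulin, at 176 against 428 CPM. The gate genes Fst, Gstm6 and Foxl2 stood at 776 against 1293, 335 against 646 and 137 against 276 CPM. Hdc, Srgn and Cpa3 were lower as well, but 1 of the 2 Cma1 cells carried most of their UMIs; without those cells their log2 ratios were -0.34, -0.34 and -0.15. Tpsb2 was higher with Lgr5, from the 40 UMIs of the other Cma1 cell. When the state was called after thinning to 5000 UMIs, 61 genes were higher and 21 of them were among the 158; Mt1 and Cst12 then had log2 ratios of 1.20 and 1.23 and Aard one of -1.10, while Sycp1, at 47.3 against 5.79 CPM before, turned to -0.83.

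Cells with a Foxl2 UMI were higher in Msx1, Pla2r1 and Peg10 and lower in keratins, Igfbp2 and metallothioneins. In all, 648 genes stood at least 2-fold above the cells without (5.69%) and 155 below (1.36%), with a median of 0.11 over all genes; the 15 cells without Foxl2 summed to 245020 UMIs, so that a count of 0 there allows 12.2 CPM. Msx1, a homeobox factor, stood at 90.5 CPM in 42 of 68 cells against 4.08 CPM in 1 of 15, and Pla2r1, a phospholipase receptor, at 98.1 CPM in 47 cells against 8.16 CPM in 1. Peg10 stood at 274 against 53.1 CPM, a ratio of 5.16 (2.98 to 9.77). Gatm (385 against 143 CPM), Wnt4 (257 against 127 CPM), Smad3 (73.4 against 16.3 CPM) and Akr1c14 (56.2 against 8.16 CPM) were higher too. When Foxl2 was called after thinning, 42 genes were higher, of which 17 were among the 648, and Msx1 and Peg10 had log2 ratios of 0.12 and 0.63; Pla2r1 had one of 1.45.

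Among the genes lower with Foxl2 were markers of surface epithelium. Krt19 stood at 33.6 CPM with Foxl2 and 204 without, 6.07 times (4.01 to 9.20) higher without, Krt7 at 23.3 against 147 CPM and Upk3b at 33.6 against 192 CPM. Of the 15 cells without Foxl2, 9 had no Upk3b UMI either. In these 9, Krt19 reached at most 2.12 and Krt7 at most 1.56 CP10K. In the rest, which had Upk3b, Krt19 reached 18.2 and Krt7 6.06 CP10K. The levels that follow include the Upk3b cells. Igfbp2, an IGF-binding protein, stood at 113 against 576 CPM, 5.09 times (4.03 to 6.41) higher without, and the metallothioneins Mt1 and Mt2 at 337 against 1212 and 66.5 against 314 CPM. After thinning, Igfbp2, Krt19, Krt7, Mt1 and Mt2 had log2 ratios between -1.57 and -1.10. Of the genes of G2 and M phase 4 of 20 were lower with Foxl2, with a median of -0.46, and of S phase genes 2 of 19, with a median of -0.63. Few cells weigh on the first of these. Without Foxl2, 1 cell held 32.0 and another 27.0 CP10K of the G2 and M list, and the rest at most 5.49. With Foxl2 the highest cells held 43.7 and 42.3 CP10K.

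Cells with a Upk3b UMI were high in other surface epithelium genes. In the 11 cells 168 genes stood at least 2-fold above the other 72 (1.48%) and 552 below (4.85%), with a median of -0.16 over all genes. Tm4sf5, a tetraspan membrane protein, stood at 137 CPM in 7 of 11 cells against 3.58 CPM in 5 of 72, a ratio of 38.2 (15.1 to 124). Krt7 stood at 166 CPM in 10 of 11 cells against 13.6 CPM in 14 of 72, a ratio of 12.2 (7.09 to 21.9), and Krt19 at 225 against 21.5 CPM, a ratio of 10.5 (6.73 to 16.7). Of 14 surface epithelium genes 11 were higher, with a median of 1.17; Upk3b itself is among them. Muc16, Lrrn4 and Gpm6a stood at 35.9, 42.4 and 22.8 CPM in the 11 cells and had 0 UMIs in the other 72. Igfbp2 stood at 587 against 90.2 CPM, Igfbp3 at 97.8 against 6.44 CPM, Myrf, a membrane-bound transcription factor, at 124 against 15.8 CPM, and Atf3, a stress-induced factor, at 307 against 60.2 CPM.

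The Upk3b cells were low in some granulosa genes and not in others. Fst stood at 277 against 1078 CPM, Foxl2 at 45.6 against 208 CPM, Irx3 at 137 against 342 CPM, Aard at 91.3 against 237 CPM and Inha at 45.6 against 110 CPM. Cela1, an elastase, was found in 1 of 11 cells against 31 of 72, at 3.26 against 55.9 CPM. Lgr5 stood at 121 against 85.9 CPM. Of the 11 cells 5 passed the gate only with their Gng13 UMIs, so that the level of Gng13, 828 against 496 CPM, follows in part from the rule. When the state was called after thinning, 131 of the 168 higher genes were higher again, and Krt7, Krt19, Igfbp2 and Tm4sf5 had log2 ratios of 3.07, 2.81, 2.62 and 3.41.

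**Figure D4:**
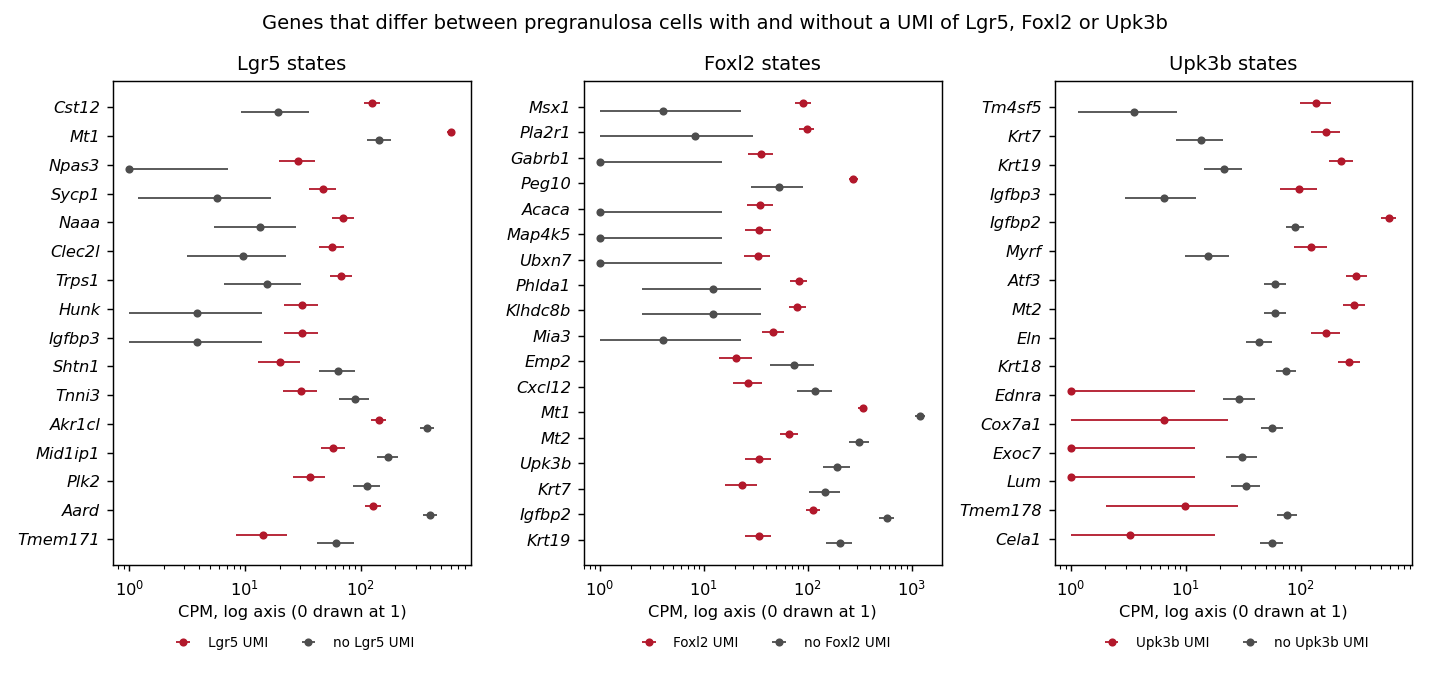
Levels of named genes (CPM, log axis) in pregranulosa cells with and without a UMI of Lgr5, Foxl2 and Upk3b; bars are exact 95% counting intervals, ended at 1 CPM, where a level of 0 is drawn. Mt1 stands at 603 against 145 CPM with and without Lgr5, Igfbp2 at 113 against 576 CPM with and without Foxl2, and Krt7 at 166 against 13.6 CPM with and without Upk3b.

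Levels were also set out over the 4 combinations of Lgr5 and Foxl2, without the 2 Cma1 cells, for genes picked after their values were seen. Gng13 stood at 1047 CPM in 10 cells with Lgr5 alone, 648 in 39 with both, 209 in 28 with Foxl2 alone and 221 in 4 with neither. Igfbp2 stood at 746, 141, 58.5 and 309 CPM and Krt19 at 259, 41.6, 18.0 and 155 CPM in the same order. Fst took the opposite course, at 427, 839, 1362 and 861 CPM, as did Aard at 96.3, 139, 414 and 110 CPM and Akr1cl at 66.2, 161, 405 and 199 CPM. Other genes did not follow these courses: in the same order Irx3 stood at 193, 385, 225 and 22.1 CPM, Amhr2 at 283, 202, 245 and 287 CPM and Rspo1 at 259, 246, 261 and 110 CPM. Gng13, Fst and Irx3 are gate genes, and their levels here follow in part from the rule. Of the 11 Upk3b cells 5 had Lgr5 alone, 4 had both, 1 had Foxl2 alone and 1 neither.

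The same gate on the later libraries took a lower share of cells, of a different makeup. It took 104 cells at P7, 21.1% (17.5 to 24.9) of 494 cells that were neither haemoglobin-rich nor over the germ gene limit, and 67 cells at P14, 11.7% (9.16 to 14.6) of 574. The gate was made from genes of embryonic cells, so these counts are not counts of granulosa cells. Median gate sums were 27.9, 8.71 and 7.56 CP10K at the 3 ages, and 60 of 83, 14 of 104 and 4 of 67 cells had 5 or more gate genes. Age and library cannot be told apart, and the following levels are values of 1 library each.

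The gate genes are given as a description, since the rule took the cells by them. Fst stood at 934 CPM at E16.5, 378 at P7 and 241 at P14, Gng13 at 555, 46.2 and 110 CPM, of which 78 of 144 UMIs at P14 lay in 1 cell, and Irx3 at 305, 80.0 and 61.8 CPM. Foxl2 stood at 179, 305 and 296 CPM, but it was the gate gene with most UMIs in 1 of 83, 39 of 104 and 32 of 67 cells, and without it 82, 66 and 31 of these cells would have passed. Among genes outside the gate, Cdkn1c stood at 1294, 29.3 and 23.6 CPM, Smpx at 164, 26.7 and 11.4 CPM and Kitl at 457, 159 and 143 CPM. Amhr2, at 225, 319 and 264 CPM, and Aard, at 211, 345 and 285 CPM, stayed within 2-fold over the 3 libraries.

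Genes of growing follicles were high in the later gated cells. Amh stood at 1.17, 405 and 345 CPM at E16.5, P7 and P14, Inha at 98.1, 1146 and 3845 CPM and Serpine2 at 17.0, 1144 and 679 CPM. Esr1 stood at 24.1, 26.7 and 38.1 CPM, and Esr2 at 0, 69.4 and 60.3 CPM. Upk3b stood at 56.4, 124 and 432 CPM, in 11, 16 and 13 gated cells.

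**Figure D5:**
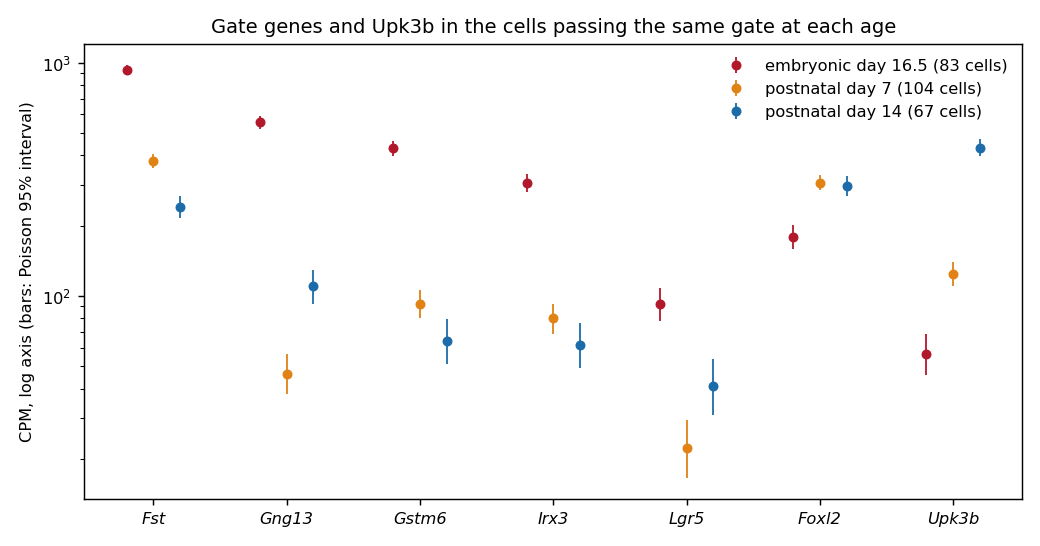
Levels of 6 gate genes and Upk3b (CPM, log axis) in the cells that pass the same gate at E16.5, P7 and P14, 1 library each; bars are exact 95% counting intervals. Fst goes from 934 to 378 and 241 CPM, and Upk3b, which is not in the gate, from 56.4 to 124 and 432 CPM; the gate genes chose these cells, and many later cells passed through Foxl2.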

How the data were processed

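Ovary cells of 3 mouse libraries, 1 per age, were measured by droplet single-cell RNA sequencing. As deposited, the values are whole UMI counts for every gene in every cell, which the authors obtained with Cell Ranger 2.1.1 on GRCm38, per the submitters' processing notes. Neither the annotation nor the cell-calling settings are stated in these sources; 50690 of 53465 gene identifiers matched GENCODE M21 with their version and 53360 without it, and positions come from it.

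Cells were gated by the rule given above, and their UMIs were summed, scaled to CPM and compared on a log2 scale of (CPM + 10), for genes with at least 10 UMIs in both sums together. This scale understates the change of low genes. A single gene's fold is the ratio of both CPM values, with an exact conditional binomial interval; levels have exact Poisson intervals and shares exact Clopper-Pearson ones, at 95%. The rule for named genes took the 20 highest and 12 lowest genes with 50 or more UMIs and intervals apart (10 per direction and 30 UMIs between states), without mitochondrial, ribosomal, haemoglobin and predicted genes, and added the gate genes, Upk3b, Esr1, Esr2, Amh and the 2 members at each end of each list. Genes outside it were chosen after their values were seen. Some genes it takes are not reported here. The members, the 29 lists (442 genes, 1 of them not in the tables) and the states were chosen with earlier results of these data known. Python 3.11.15 with numpy 2.4.6, scipy 1.17.1 and pandas 2.3.3 was used, and R 4.3.3 with edgeR 4.0.16 for TMM factors. The contrast was tested on simulated data. Alternatives changed the gate, scaling, pseudocount, filter, comparator and state call.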

Additional observations from a re-analysis of the deposited data

How the results depend on the processing

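The number of gated cells ran from 70 with a germ gene limit of 3 CP10K to 89 with a gate of 3 CP10K, and their share from 31.2 to 37.1%. Cells passing at P7 and P14 (104 and 67) became 173 and 136 with a gate of 3 CP10K, 31 and 14 with a gate of 10 CP10K, 50 and 42 without Fst in the sum, and 66 and 31 without Foxl2. Against other somatic cells, 1115 higher and 477 lower genes became 2930 and 1407 with a pseudocount of 1 CPM, 223 and 95 with 50 CPM, and 733 and 727 under TMM; with all other cells as comparator 1751 were higher. Of the Lgr5 counts, 158 higher became 61 when called after thinning and 91 when called by 2 UMIs, and a pseudocount of 1 gave 826 higher and 413 lower. Of the Foxl2 counts, 648 higher and 155 lower became 42 and 75 after thinning, 178 and 62 by 2 UMIs, and 1733 and 583 with a pseudocount of 1. Of the Upk3b counts, 168 higher and 552 lower became 450 and 1766 with a pseudocount of 1, and 256 were higher by the mean over cells.

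The following alternatives were chosen after seeing the data, as were the stroma-rich comparator, the sets without the 2 Cma1 cells and the TMM list medians. Cells of 10000 to 30000 UMIs gave 245 higher and 149 lower for Lgr5, 1046 higher for Foxl2, and 284 higher and 1226 lower for Upk3b. Asking also for intervals that do not overlap gave 93 higher for Lgr5, 175 higher and 86 lower for Foxl2, and 202 lower for Upk3b. Without the Upk3b cells Foxl2 gave 1126 higher and 314 lower.

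Small values changed sign too and are not listed in full. The Hedgehog and imprinted medians went from 0.34 and 0.32 to -0.21 and -0.084 against stroma-rich cells. Among results of at least 2-fold in the main setting, signs changed in these cases. Against stroma-rich cells the endothelial and immune medians were 0.044 and 0.81, and log2 ratios were 0.50 for S100a9, 0.088 for Lyz2, 0.085 for Cldn5, 0.21 for Cdh5, 0.082 for Cd93 and 0.15 for C1qb; that comparator lacks the cells gated as endothelium or immune. Cma1 had -0.26 without the 2 cells that hold it. With Lgr5 called after thinning, Tpsb2 had -2.10, Sycp1 -0.83, Igfbp3 -0.14 and Cdc42ep4 0.031, and with Foxl2 so called Map4k5 had -0.030; the cause was not tested. For Foxl2, Cpa3 had 0.19 without the 2 Cma1 cells and 2.44 in cells of 10000 to 30000 UMIs, where Cma1 had 4.86. Of 1259 alternatives for named genes 981 stayed within counting error, as did 374 of 426 list medians within the spread of their members. No paired analysis was possible because each age has 1 library, and depth limits the calls of Lgr5 and Foxl2 per cell.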
